A study of Sus scrofa with 16 samples.

Results

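The genes described here move calcium in and out of the cytosol of cardiomyocytes, the contracting muscle cells of the heart. They were chosen by symbol, as a list of 10 genes (*RYR2*, *RYR3*, *ATP2A2*, *PLN*, *SLN*, *CASQ2*, *TRDN*, *JPH2*, *SLC8A1* and *CACNA1C*), out of 22629 genes listed in the expression tables. Of the 10, 9 were found. *TRDN* is listed by its Ensembl ID, ENSSSCG00000027613, which the gene name table pairs with that symbol, and *JPH2* was not matched to any entry and was not analysed here.

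Left ventricular tissue came from 8 pigs of the White Yorkshire-Landrace breed, operated on at 1 month of age and killed 4 weeks later. In the 4 IR pigs (ischemia/reperfusion) the left anterior descending artery was closed for 1 h and then reopened. In the 4 sham pigs the suture was placed around the same artery but not tightened. Heparin is stated for all IR pigs and is not mentioned for the sham pigs. Each pig gave 1 piece from the scar zone, just below the suture, and 1 from the border zone next to it, so that 16 samples fell into 4 groups of 4. Every group held 2 females and 2 males. The IR scar zone piece held scar together with surviving myocardium, and the sham piece called scar zone came from the matching site at the suture, without occlusion of the artery. Sham tissue had thus also been through the surgery.

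In each heartbeat, calcium enters the cardiomyocyte through the L-type channel and triggers a much larger release from the sarcoplasmic reticulum (SR), the internal calcium store, through ryanodine receptors. The muscle relaxes when the SR pump takes calcium back up, held in check by small regulatory proteins, and when the sodium-calcium exchanger carries the rest out of the cell. *RYR2* encodes the cardiac ryanodine receptor, while *RYR3* encodes a form known mainly from brain, smooth muscle and developing skeletal muscle.

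Total estimated counts ranged from 15427663 to 49045206. Levels are given as CPM, counts divided by a common unit of depth and then scaled between samples. Before that scaling, 3 counts correspond to between 0.0612 and 0.194 CPM depending on the sample. Of 12 cardiomyocyte markers 9 were listed, and all 9, such as *MYH7* and *TNNT2*, were present in every sample. Their summed TPM (a level scaled for transcript length as well as depth) was 50336 to 60668 in the IR scar zone and 54405 to 65897 in the sham scar zone. The summed TPM of 8 fibroblast markers set IR scar samples apart from one another, with 1722 in pig 2, 9769 in pig 9, 9982 in pig 11 and 1351 in pig 14, against 1717 to 2364 in the sham scar zone. Pigs 9 and 11 are the IR males and pigs 2 and 14 the IR females. Samples of whole tissue were measured, in which fewer cells of a type and less RNA per cell cannot be told apart.

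By median TPM over the 16 samples, a level per length, the order was *PLN* (24677), *ATP2A2* (1083), *CASQ2* (613), *SLC8A1* (201), *RYR2* (117), *TRDN* (59.2), *CACNA1C* (17.3), *SLN* (0.0920) and *RYR3* (0.0191). The ranges of neighbours overlapped for *SLC8A1* and *RYR2*, for *RYR2* and *TRDN* and for *SLN* and *RYR3*, although *SLC8A1* lay above *RYR2* in 16 of 16 samples and *RYR2* above *TRDN* in 15 of 16. The place of *PLN* rests on its length: the ratio of counts to TPM implied a length for *PLN* of 0.703% of that for *ATP2A2* (0.637% to 0.816% over the samples), against 26.4% for *CASQ2* and 361% for *RYR2*. In CPM, which are not divided by length, *PLN* (mean 536 over 16 samples) lay below *ATP2A2* (mean 3678).

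**Figure D1:**
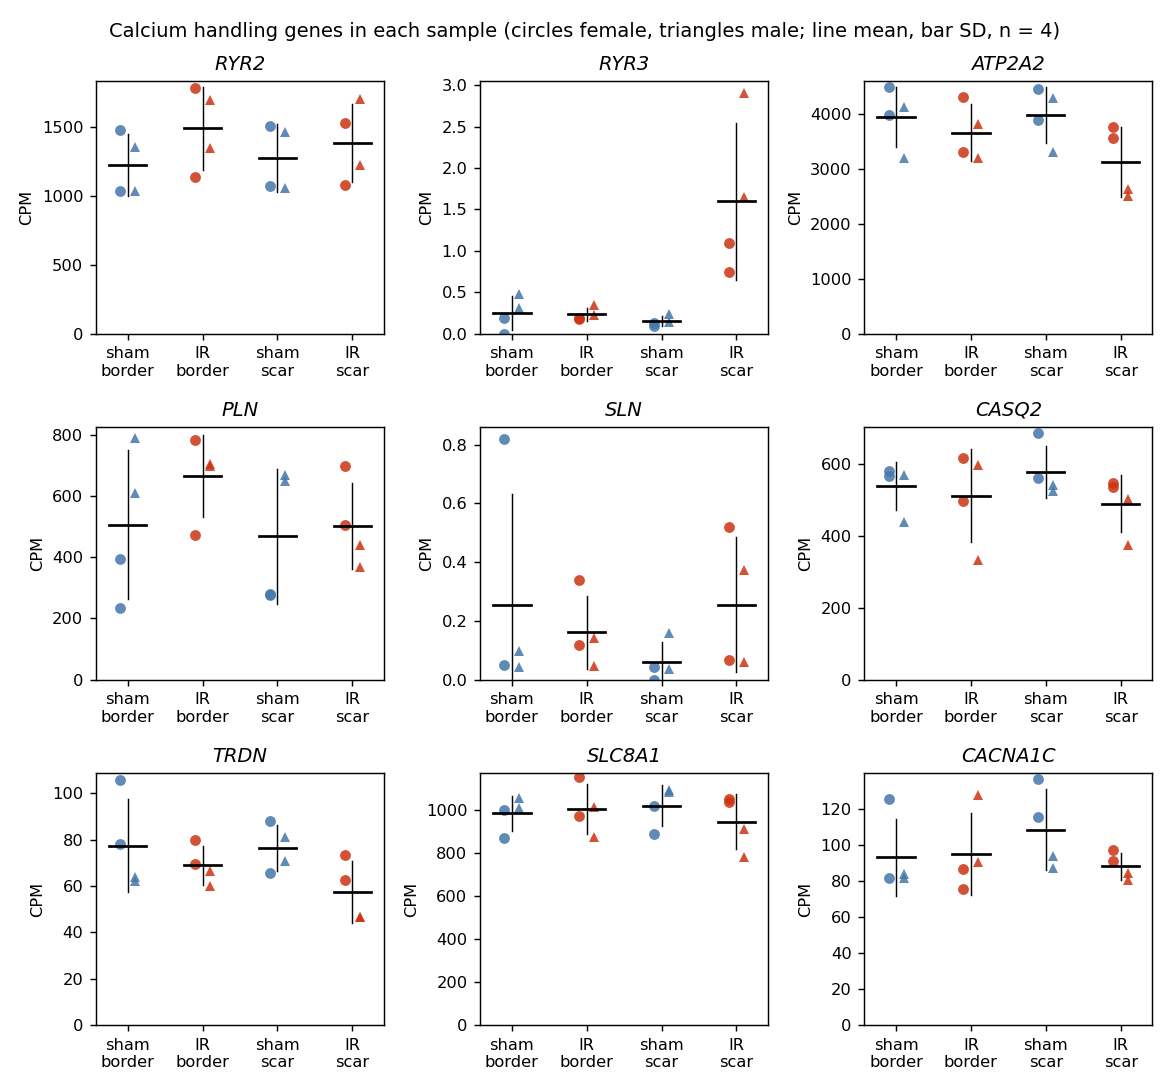
CPM of the 9 listed genes in each sample (vertical axes, CPM, each from 0) in the 4 groups, with circles for females, triangles for males, a horizontal line for the mean and a vertical bar for the SD (n = 4 pigs). *RYR3* lay at 0.751 to 2.90 CPM in the IR scar zone and at 0 to 0.486 CPM in all other samples.

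Among the release channels, *RYR3* was the gene that differed most between groups. In the IR scar zone it measured 0.751 CPM in pig 2, 1.66 in pig 9, 2.90 in pig 11 and 1.09 in pig 14, and in the sham scar zone 0.0904 in pig 4, 0.129 in pig 5, 0.145 in pig 12 and 0.237 in pig 13. All 4 IR values lay above all 4 sham values, with means of 1.60 ± 0.946 and 0.1504 ± 0.0622 CPM (SD, n = 4). The border zone of the IR pigs measured 0.193, 0.228, 0.346 and 0.175 CPM (pigs 2, 9, 11 and 14) and that of the sham pigs 0.195, 0, 0.486 and 0.310 CPM (pigs 4, 5, 12 and 13). These border zone values overlapped, with means of 0.236 ± 0.0769 and 0.248 ± 0.204 CPM (SD, n = 4).

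The *RYR3* values rest on few counts. The IR scar samples held 13, 71, 97 and 16 counts and the sham scar samples 2, 3, 4 and 6, giving sums of 197 and 15 and a ratio per total count of 12.3 (exact 95% interval 7.27 to 22.4). For the border zone the sums were 30 and 21 and the ratio 0.985 (0.545 to 1.81). Within IR pigs the scar zone held 7.66 times the border zone share (5.20 to 11.7), and within sham pigs 0.614 times (0.295 to 1.25). Such intervals cover counting error only and not the spread between pigs.

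For *RYR3* in the scar zone edgeR gave a log2 fold change of 3.38 (SE 0.52), an unadjusted p of 8.86e-05 and a Benjamini-Hochberg adjusted p of 0.414 over the 14023 genes tested. The difference therefore did not pass the adjusted threshold in edgeR, while DESeq2 gave an adjusted p of 0.000305 for it. Over the alternatives run the log2 fold change stayed between 2.92 and 3.67, and edgeR's adjusted p was 0.0690 with sex as a covariate and 0.105 with a factor of unwanted variation. *RYR3* passed the filter on low counts only through the IR scar zone, and it was too low for testing in the border zone and in sham pigs. Without the filter, edgeR gave -0.04 (SE 0.76) in the border zone and -0.70 (SE 0.78) for scar against border zone in sham pigs.

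The change of the IR effect between zones was 3.41 (SE 0.91) on the log2 scale for *RYR3*, with an edgeR p of 0.00177 and an adjusted p of 1.00. Here too, and between the zones of IR pigs, *RYR3* was among the genes tested only through the IR scar zone, where it was high. Scar against border zone in IR pigs gave 2.71 (SE 0.49), with an edgeR p of 0.000324 and an adjusted p of 0.989. With the pig as a block, that comparison gave the same fold change with an SE of 0.33 and an edgeR adjusted p of 0.431, and DESeq2 without the block gave an adjusted p of 0.0171.

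*RYR2*, the main cardiac release channel, did not follow *RYR3*. It measured 1077, 1222, 1706 and 1529 CPM in the IR scar zone (pigs 2, 9, 11 and 14) and 1072, 1509, 1466 and 1058 CPM in the sham scar zone (pigs 4, 5, 12 and 13). Border zone values were 1136, 1346, 1694 and 1785 CPM in IR pigs and 1034, 1477, 1032 and 1355 CPM in sham pigs. The groups overlapped in both zones, and the log2 fold changes were 0.11 (SE 0.19) in the scar zone and 0.28 (SE 0.19) in the border zone, with edgeR adjusted p of 0.821 and 0.988. By TPM, *RYR3* amounted to 0.110% ± 0.0491 (SD, n = 4) of *RYR2* in the IR scar zone, 0.0122% ± 0.00669 in the sham scar zone, 0.0159% ± 0.00441 in the IR border zone and 0.0219% ± 0.0191 in the sham border zone. *RYR2* thus supplied nearly all ryanodine receptor transcript of these 2 genes in every sample, the IR scar zone included.

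Because both zones came from the same animal, *RYR3* could be set against *RYR2* within each pig, as the log2 ratio in the scar zone minus that in the border zone. The difference was 1.69 in pig 2, 2.64 in pig 9, 2.80 in pig 11 and 2.42 in pig 14, all IR pigs, and -0.75 in pig 4, 1.37 in pig 5, -1.84 in pig 12 and 0.06 in pig 13, all sham pigs. The IR values all lay above the sham values, the nearest being pigs 2 and 5. The 3 scar zone counts and 0 border zone counts of *RYR3* in pig 5 mean that its difference depends on the prior count of 2 added before the logarithm.

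The paired difference averaged 2.39 ± 0.49 over the 4 IR pigs and -0.29 ± 1.35 over the 4 sham pigs (SD). A two-sided exact permutation test of IR against sham gave p = 0.0286 for the difference of 2.68, the smallest value that 4 against 4 pigs allow, and 0.114 after Benjamini-Hochberg adjustment over 4 tests. Within IR pigs the exact sign-flip test gave p = 0.125, the smallest possible with 4 pigs, with 4 of 4 above 0, and within sham pigs p = 0.75, with 2 of 4 above 0. Over all 8 pigs the exact p was 0.133, with 6 of 8 above 0. With a prior count of 0.5 the IR against sham difference was 2.70 and its exact p 0.0857. Without any 1 of the IR pigs 2, 9, 11 and 14 the exact p was 0.0571. The pair of genes was chosen with earlier results of these samples known and the test runs on the same high *RYR3* values of the IR scar zone, so its p is no independent support. *RYR2* alone moved little between zones, with a scar minus border difference of -0.11 ± 0.10 for IR and 0.06 ± 0.35 for sham pigs (SD, n = 4).

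**Figure D2:**
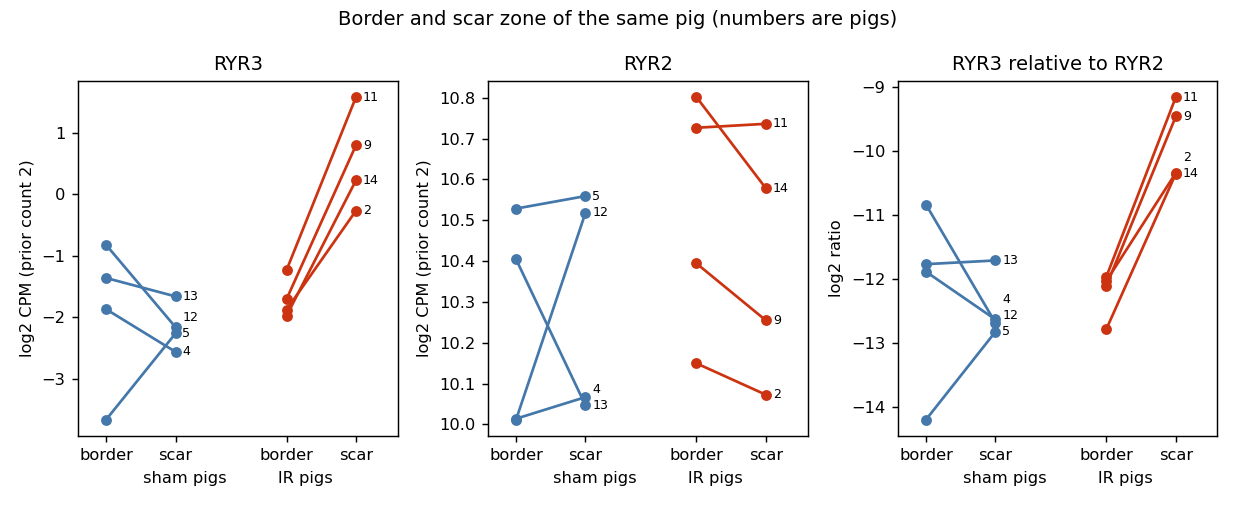
Log2 CPM of *RYR3* and *RYR2* and their log2 ratio (vertical axes) in the border and scar zone of each pig, joined by a line and numbered by pig, with sham pigs in blue and IR pigs in red. The *RYR3* lines rise from border to scar zone for 4 of 4 IR pigs and 1 of 4 sham pigs.

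Markers of other cell types were examined beside *RYR3*. Summed TPM of 7 smooth muscle markers was 458, 701, 699 and 253 in the IR scar samples of pigs 2, 9, 11 and 14, against 266 to 470 in the sham scar zone. Pig 14 thus had the lowest smooth muscle sum of the scar samples and an *RYR3* level above every sham sample, and the IR border sample of pig 2 had a smooth muscle sum of 679 with *RYR3* at 0.193 CPM. The fibroblast sums of pigs 2 and 14 lay within or below the range of the sham border and scar samples, and both had *RYR3* above every sham sample. Both sums were highest in pigs 9 and 11, which also had the highest *RYR3*. These are the IR males, so among IR pigs this split cannot be told apart from sex. Their scar samples also held more total estimated counts, 36509911 and 34251150 against 17595342 and 15427663 in pigs 2 and 14. Summed TPM of 6 skeletal muscle markers stayed between 0.134 and 0.935 over all 16 samples, with *MYOD1* at 0 in 15 and *MYLPF* at 0 in 14 of them. Leukocyte marker sums were 41.0 to 127 in the IR scar zone and 29.3 to 66.8 in the sham scar zone. Summed TPM of the 4 listed Schwann cell markers was 8.34 in pig 2, 7.99 in pig 9, 4.38 in pig 11 and 2.44 in pig 14, against 2.21 to 4.43 in sham scar samples. Endothelial sums were 240.3 to 323 and 274 to 317, and adipocyte sums 85.6 to 191 and 63.4 to 131, in IR and sham scar samples. The part of these cell types in the *RYR3* difference was not tested.

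Among the genes of uptake, *ATP2A2*, the SR calcium pump, measured 3559.7, 2512, 2638 and 3769 CPM in the IR scar zone (pigs 2, 9, 11 and 14) and 3886, 4459, 4288 and 3301 CPM in the sham scar zone (pigs 4, 5, 12 and 13). Pigs 9 and 11, the IR males, lay below every sham sample and pigs 2 and 14 within the sham range, so the groups overlapped. The log2 fold change was -0.36 (SE 0.19), with an edgeR p of 0.0831 and an adjusted p of 0.483. Border zone *ATP2A2* differed by -0.11 (SE 0.16), the means being 3659 ± 514 CPM for IR and 3949 ± 549 CPM for sham pigs (SD, n = 4).

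*PLN* encodes phospholamban, the small membrane protein that restrains the pump. It measured 505, 369, 441 and 698 CPM in the IR scar zone (pigs 2, 9, 11 and 14) and 276, 279, 649 and 669 CPM in the sham scar zone (pigs 4, 5, 12 and 13). Its border zone values were 472, 705, 699 and 783 CPM for IR and 234, 395, 609.9 and 790.3 CPM for sham pigs. Pigs 4 and 5, the 2 sham females, were the lowest of their group in both zones, whereas the IR females, pigs 2 and 14, lay above the IR males, pigs 9 and 11, in the scar zone. Whether sex changes the IR effect on *PLN* was not tested. The log2 fold change for IR against sham was 0.10 (SE 0.33) in the scar zone and 0.39 (SE 0.32) in the border zone, the widest errors among the members tested in both zones, with edgeR adjusted p of 0.908 and 0.988. The ratio of *ATP2A2* to *PLN* counts was 11.4 to 17.0 in the 4 samples of pigs 4 and 5 and 4.57 to 7.05 in the other 12 samples.

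*SLN*, sarcolipin, is a further pump inhibitor, known within the heart mainly from the atria. It stayed between 0 and 16 counts in every sample, or 0 to 0.820 CPM, and fell below the minimum count in all comparisons. The 2 samples with 16 counts were the IR scar zone of pig 9 (0.373 CPM) and the sham border zone of pig 5 (0.820 CPM). Without the filter its log2 fold change was 1.98 (SE 0.97) in the scar zone and -0.68 (SE 0.97) in the border zone, with edgeR adjusted p of 0.485 and 0.958. Of 4 atrial markers 3 were listed, and none was at 0 in any sample: *MYL4* spanned 1.64 to 66.5 TPM, *KCNJ3* 10.3 to 20.4 TPM and *BMP10* 0.0211 to 0.215 TPM. Their summed TPM was 18.2 to 77.6 (median 63.2) in IR scar samples and 20.7 to 28.9 (median 25.1) in sham scar samples, and 23.4 to 82.7 and 15.7 to 69.4 in the border zone. Their part in the *SLN* values was not tested.

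Storage in the SR and its junction with the surface membrane were represented by *CASQ2*, the calcium-binding protein calsequestrin, and *TRDN*, triadin, which anchors it to the release channel. *TRDN* measured 62.7, 46.8, 46.4 and 73.6 CPM in the IR scar zone (pigs 2, 9, 11 and 14) and 65.8, 87.9, 81.2 and 70.6 CPM in the sham scar zone (pigs 4, 5, 12 and 13). Only pig 14 of the IR pigs lay inside the sham range. The log2 fold change was -0.42 (SE 0.17), with an edgeR p of 0.0369 and an adjusted p of 0.438, and the unadjusted p rose above 0.05 when pig 5, 9, 11 or 12 was left out. *TRDN* in the border zone differed by -0.17 (SE 0.18), and pig 4 of the sham pigs held the highest value, 106 CPM.

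*CASQ2* measured 546, 374, 501 and 535 CPM in the IR scar zone (pigs 2, 9, 11 and 14) and 559, 684, 540.0 and 523 CPM in the sham scar zone (pigs 4, 5, 12 and 13). The groups overlapped, and the log2 fold change was -0.25 (SE 0.16) with an edgeR p of 0.149. Its border zone means were 510.1 ± 129 and 538 ± 66.0 CPM (SD, n = 4), a log2 fold change of -0.07 (SE 0.20).

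Entry and extrusion across the surface membrane were represented by *CACNA1C*, the pore of the L-type channel, and *SLC8A1*, the sodium-calcium exchanger. *CACNA1C* measured 97.4, 84.3, 80.4 and 90.9 CPM in the IR scar zone (pigs 2, 9, 11 and 14) and 116, 137, 94.1 and 87.2 CPM in the sham scar zone (pigs 4, 5, 12 and 13). Its log2 fold change was -0.31 (SE 0.16) in the scar zone, with an edgeR p of 0.0836, and 0.03 (SE 0.20) in the border zone. The scar zone values overlapped, pigs 2 and 14 of the IR pigs lying inside the sham range. *SLC8A1* was the steadiest of the genes, with group means (SD, n = 4) from 944 ± 127 CPM (IR scar zone) to 1019 ± 95.05 CPM (sham scar zone) and a highest sample 1.48 times the lowest over all 16. Its log2 fold changes were -0.12 (SE 0.14) and 0.03 (SE 0.13), with edgeR adjusted p of 0.732 and 0.995.

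Counted over the members, 0 of 8 tested passed an adjusted p of at most 0.05 with a fold change of at least 2 in the scar zone by edgeR, as did 0% of all genes, and 2 of 8 had an unadjusted p of at most 0.05, against 11.2% of all genes. These were *RYR3*, higher, and *TRDN*, lower. On log2(TPM + 1), which lacks the scaling between samples used for CPM, limma placed all 7 members it tested higher than edgeR did. Its scar zone differences were -0.24 for *TRDN* (limma unadjusted p 0.125), -0.18 for *ATP2A2*, -0.10 for *CACNA1C* and -0.05 for *CASQ2*. They were 0.059 for *SLC8A1*, 0.28 for *RYR2* and 0.42 for *PLN*. With sex as a covariate edgeR gave such an unadjusted p to 4 of 8 members and to 2216 of 14023 genes, adding *ATP2A2* (-0.38, SE 0.14, adjusted p 0.271) and *CACNA1C* (-0.29, SE 0.11, adjusted p 0.276), both lower. DESeq2 called 1 of 8 (*RYR3*) and 52 genes in all, and limma called none of the 7 it tested, *RYR3* not among them. In the border zone 0 of 7 members passed the adjusted rule in edgeR (0% of all genes), 0 of 7 the unadjusted p (3.78% of all genes), and DESeq2 and limma called none. *RYR3* was the only member of 8 whose IR and sham CPM did not overlap in the scar zone, against 4.86% of all genes, and 0 of 7 members did not overlap in the border zone, against 2.03% of all genes. Since *RYR3* entered these counts, and those for the zone dependence and between zones of IR pigs, only through the group in which it was high, it adds nothing to them as support.

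**Figure D3:**
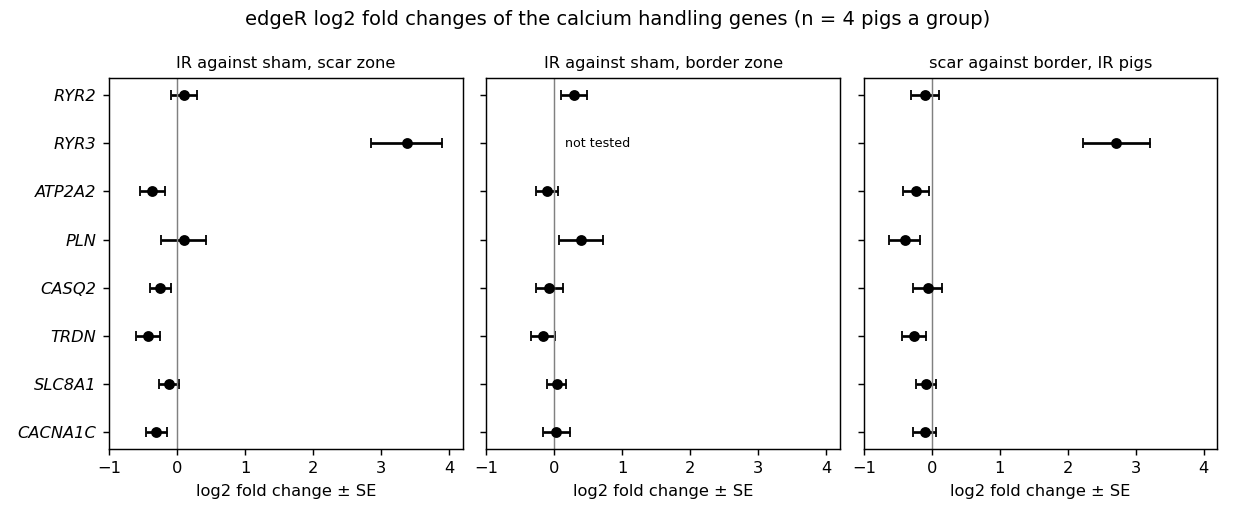
Log2 fold change from edgeR (horizontal axis, with the SE as bars, n = 4 pigs a group) of the 8 members tested, for IR against sham in each zone and for scar against border zone in IR pigs. *RYR3* lay at 3.38 in the scar zone and 2.71 between zones, and every other member lay between -0.42 and 0.39.

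For the change of the IR effect between zones, 0 of 8 members passed the adjusted rule in edgeR (0% of all genes) and 1 of 8 the unadjusted p (2.22% of all genes), which was *RYR3* and is not read against that share. Apart from *RYR3*, the members ranged from -0.33 (*CACNA1C*) to -0.14 (*SLC8A1*), with SEs of 0.18 to 0.51. On log2(TPM + 1), limma gave values from -0.21 (*PLN*) to 0.0017 (*CASQ2*). For scar against border zone in IR pigs, 0 of 8 passed the adjusted rule (0% of all genes) and 1 of 8 the unadjusted p (4.35% of all genes), again *RYR3* and again not read against that share. With the pig as a block *TRDN* also reached it, at -0.29 (SE 0.09; edgeR adjusted p 0.431), being lower in the scar zone in 4 of 4 IR pigs, and 1601 of 14170 genes had such an unadjusted p in that fit. In sham pigs 0 of 7 passed either the adjusted rule (0% of all genes) or the unadjusted p (0.819% of all genes), and with the block *CACNA1C* had a log2 difference of 0.22 and an edgeR p of 0.0264, in a fit where 659 of 13803 genes reached an unadjusted p of at most 0.05.

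Levels of cardiomyocyte markers were set beside the members. The mean log2 CPM of the 9 cardiomyocyte markers was 12.41 ± 0.31 in the IR scar zone, 12.70 ± 0.18 in the sham scar zone, 12.71 ± 0.09 in the IR border zone and 12.74 ± 0.27 in the sham border zone (SD, n = 4). The scar zone values overlapped, at 12.01 to 12.68 in IR and 12.54 to 12.94 in sham pigs. Taken relative to that mean, the difference between IR and sham in the scar zone went from -0.37 to -0.07 for *ATP2A2*, from -0.43 to -0.14 for *TRDN*, from -0.28 to 0.02 for *CACNA1C* and from -0.25 to 0.05 for *CASQ2*. It went from 0.11 to 0.41 for *RYR2*, from 0.20 to 0.49 for *PLN* and from -0.12 to 0.18 for *SLC8A1*, and from 2.74 to 3.04 for *RYR3* on the same log2 CPM scale. This scale adds the same amount to every gene, so which genes come near 0 is set by that amount, and the part of cardiomyocyte content in the differences was not tested. *RYR3* was higher on both scales. By TPM, *RYR2* amounted to 12.7% ± 3.93 of *ATP2A2* in IR and 8.92% ± 0.835 in sham scar samples (SD, n = 4), and to 11.3% ± 2.34 and 8.59% ± 0.940 in the border zone. No test was run on the relative values.

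**Figure D4:**
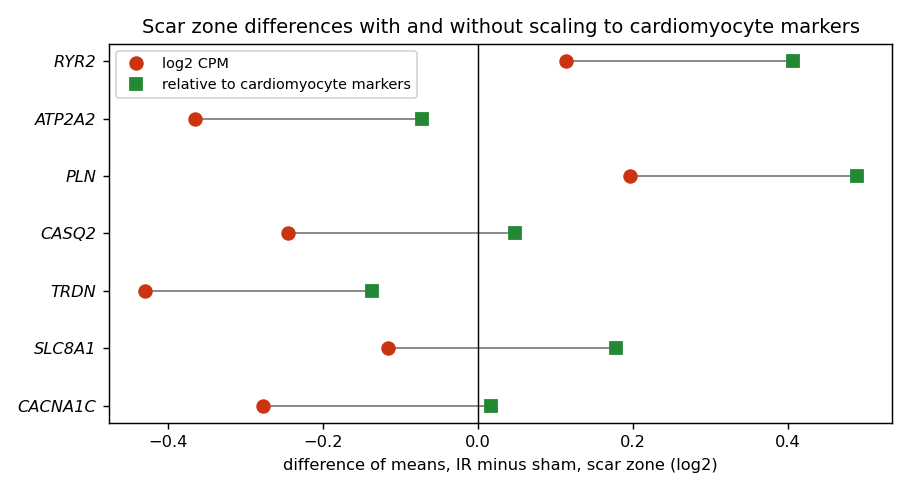
Difference of group means, IR minus sham, in the scar zone (horizontal axis, log2) for 7 members, as log2 CPM (red circles) and relative to the mean of 9 cardiomyocyte markers (green squares). Each gene shifted to the right by the same amount, the difference of the marker means, so that *ATP2A2* went from -0.37 to -0.07 and *RYR2* from 0.11 to 0.41.

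Across the 16 samples, which come from 8 pigs in 4 groups, *ATP2A2* and *TRDN* had the highest Pearson correlation of log2 CPM among the members (r = 0.770), and *RYR3* ran opposite to both (r = -0.784 with *ATP2A2*, -0.686 with *TRDN*). *RYR2* and *RYR3* had r = 0.09. Outside the IR scar zone *RYR3* held at most 15 counts in any sample. Its correlations are thus not independent of its high IR scar zone values. The 5 symbols most like *RYR3* were *RGS1* (r = 0.908), *CYP2B22* (0.905), *BMP3* (0.874), *AK4* (0.853) and *SFXN1* (0.852), and those most like *RYR2* were *GJA1* (0.867), *PCYT1A* (0.848), *SYNJ2BP* (0.847), *MEF2A* (0.841) and *DHX9* (0.836). *RGS1*, a regulator of G protein signalling known from immune cells, averaged 10.1 CPM in the IR and 2.82 CPM in the sham scar zone. *GJA1*, the gap junction protein connexin 43, averaged 499 and 470.0 CPM.

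A wider list of 58 other calcium handling genes, of which 53 were listed, put the members in context. In the scar zone 48 were tested by edgeR, and 9 (18.75%, against 11.2% of all genes) had an unadjusted p of at most 0.05 (6 higher, 3 lower) and none an adjusted p of at most 0.05 with a fold change of 2. Their median log2 fold change was 0.03, the same as that of all genes. Such an unadjusted p was reached in the border zone by 1 of 47 (3.78% of all genes), in the zone dependence by 0 of 48 (2.22% of all genes), between zones of IR pigs by 2 of 47 (4.35% of all genes) and between zones of sham pigs by 1 of 47 (0.819% of all genes).

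By role, the genes at an unadjusted p in the scar zone were 5 of 14 of calcium entry (4 higher, 1 lower), 2 of 5 of extrusion (both higher), 1 of 4 of uptake (lower) and 1 of 4 calcium-dependent kinases (lower). None of 8 release, 9 storage and junction or 4 mitochondrial genes was among them. The share over all genes was 11.2%, each role holds few genes, and differences between the roles were not tested. Entry genes included *CACNA1G*, the pore of a T-type channel, which averaged 6.002 ± 3.01 CPM for IR and 3.03 ± 0.718 CPM for sham pigs (SD, n = 4; log2 fold change 0.99, edgeR p 0.0253). *ORAI2*, a store-operated channel subunit, was at 14.9 ± 7.50 and 7.64 ± 1.01 CPM (0.97, edgeR p 0.0172), and *CACNB1*, a beta subunit, at 6.37 ± 1.52 and 4.01 ± 0.491 CPM (0.66, edgeR p 0.0143). *CACNA1G* measured 9.02 and 8.00 CPM in pigs 9 and 11 of the IR pigs and 4.33 and 2.66 CPM in pigs 2 and 14, against 2.35 to 4.01 CPM in sham pigs. *ORAI2* likewise measured 21.9 and 20.8 CPM in pigs 9 and 11 and 9.30 and 7.63 CPM in pigs 2 and 14, against 6.60 to 8.86 CPM in sham pigs. Pigs 9 and 11 also had the highest fibroblast sums (9769 and 9982 TPM) and leukocyte sums (127 and 97.2 TPM) of the scar samples. They were also the IR males. The part of sex or of these cell types in the split among IR pigs was not tested. The beta subunit *CACNB2* differed by -0.57 in the scar zone (edgeR p 0.0427) and by -0.32 in the border zone.

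Of the extrusion genes, *ATP2B3*, a plasma membrane calcium pump, had the smallest p of the wider list, averaging 3.03 ± 1.24 CPM for IR and 1.30 ± 0.151 CPM for sham pigs (SD, n = 4), with a log2 fold change of 1.22 (SE 0.32) and an edgeR p of 0.00412. All 4 IR values (1.63 to 4.62 CPM) lay above all 4 sham values (1.08 to 1.41 CPM). Groups did not overlap, in either direction, for 4.86% of all genes in the scar zone. The lowest IR value, in pig 14, rests on 24 counts. Its border zone difference was 1.27 (SE 0.65), with IR values from 0.877 to 6.91 CPM. Lower in the scar zone were *CAMK2G*, a calcium/calmodulin-dependent kinase (-0.48, edgeR p 0.0142), and *PPP1R1A*, an inhibitor of the phosphatase that acts on phospholamban (-0.94, edgeR p 0.0284). For these 6 genes the edgeR adjusted p was 0.438. In the border zone, after *ITPR3*, an IP3 receptor (-0.42, edgeR p 0.0395), *CACNA2D1* differed by 0.40, *CAMK2G* by -0.30 and *PPP1R1A* by -0.39, and each adjusted p was 0.988.

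**Figure D5:**
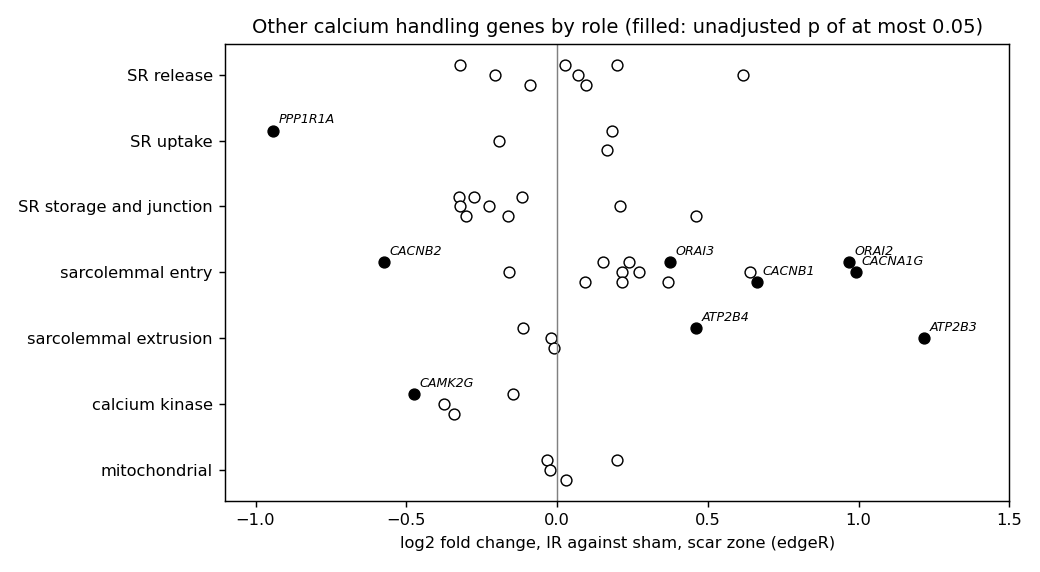
Scar zone log2 fold change of IR against sham (horizontal axis, edgeR) for the 48 other calcium handling genes tested, in rows by role, with filled points for an unadjusted p of at most 0.05. The 9 filled points, 5 of them entry genes, run from *PPP1R1A* at -0.94 to *ATP2B3* at 1.22.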

How the data were processed

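Polyadenylated RNA was made into stranded libraries and sequenced. Per the submitters' processing notes, Trimmomatic 0.33, HISAT2 2.0.5 and kallisto 0.43.1 were used, and the genome build is not given in the sources used here. The authors deposited estimated counts, in which reads shared by transcripts are divided between them, and TPM, which are scaled for transcript length and depth. Near-identical genes depend on that division. Of the 22629 genes, 15095 carry a symbol and 7534 only an Ensembl ID, and 889 of these IDs were given a symbol through a gene name table.

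Estimated counts were rounded and tested in R 4.3.3 with edgeR 4.0.16 (TMM, filterByExpr with minimum count 10 and minimum total 15, quasi-likelihood test, Benjamini-Hochberg adjustment over all genes tested). CPM were TMM scaled, and log2 CPM used a prior count of 2. Each sample's group and pig come from the labels. Tests of 1 zone compare pigs and measure the spread between animals, and the pig was left out of, and then added as a block to, tests between zones. Deviations of both zones of a pig from their group means correlated at 0.354 to 0.650 in IR and 0.430 to 0.692 in sham pigs. The paired *RYR3* to *RYR2* difference was tested by exact permutation in Python 3.11.15.

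Alternatives were DESeq2 1.42.0, upper-quartile scaling, no filter, limma 3.58.1 on log2(TPM + 1) and log2(TPM + 0.1) for genes reaching a TPM of 1 in 4 or more samples, sex as a covariate, a fit of all 16 samples, 1 factor of unwanted variation by a written-out RUVg (5000 control genes; RUVSeq was not used), unadjusted p with a fold change of 2, the median in place of the mean of the cardiomyocyte markers, and leaving out each pig. A check on simulated data was also run, whose outcome is not given here and is not used as support. The members and gene lists were chosen with earlier results of these data known. Genes named are all members, the 6 other calcium genes with the smallest p in each zone, and the 5 symbols most correlated with *RYR3* and with *RYR2*.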

Additional observations from a re-analysis of the deposited data

Results flagged for a closer look

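The paired scar minus border difference of *RYR3* against *RYR2* differed between IR and sham pigs by 2.68 on the log2 scale (two-sided exact permutation test, p = 0.0286, 0.114 after adjustment over 4 tests), with 4 of 4 IR and 2 of 4 sham pigs above 0. The exact p was 0.0857 with a prior count of 0.5 and 0.0571 without any 1 of IR pigs 2, 9, 11 and 14. The pair of genes was chosen with earlier results of these data known. The test also runs on the high *RYR3* values of the IR scar zone, so its p is no independent support. Of 36 groups of 4 samples, 3 held a value far from the other 3 of its group, where chance gives about 5%, or 1 in 20 groups. All 3 were in the sham border zone. *SLN* was highest in pig 5, at 0.820 CPM (16 counts), *CACNA1C* was highest in pig 5, at 125.2 CPM, and *CASQ2* was lowest in pig 13, at 439 CPM.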

How the results depend on the processing

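Depth limited *RYR3* and *SLN*, most of whose samples held under 10 counts. Where edgeR called 0 members, DESeq2 called 1 in the scar zone and 1 between zones of IR pigs, and the unadjusted p with a fold change of 2 called 1 in each of these and 1 in the zone dependence, *RYR3* each time. Over all genes, where edgeR called 0, DESeq2 called 52 in the scar zone, 2 in the border zone, 4 between zones of IR pigs and 1 of sham pigs. The unadjusted p with a fold change of 2 called 470, 109, 250 and 14 in the same order, and 196 in the zone dependence. On log2(TPM + 1) limma called 3 in the scar zone, 2 between zones of IR pigs and 1 of sham pigs, and on log2(TPM + 0.1) it called 1 in the scar zone and 2 between zones of IR pigs. The *RYR3* to *RYR2* difference was 2.70 with a prior count of 0.5 and 2.16 to 3.23 with a pig left out. Its sham mean ranged from -0.84 to 0.23, the latter without pig 12.

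With the pig as replicate block, *RYR3* gave 3.35 in the zone dependence and 2.71 between zones of IR pigs, and no adjusted call changed. Members that turned direction were not called, and some of their values lay away from 0, as given below. With limma on log2(TPM + 1) and log2(TPM + 0.1) these were *SLC8A1* in the scar zone (0.059 and 0.059), *CASQ2* in the zone dependence (0.0017 and 0.0018), *TRDN* between zones of sham pigs (0.018 and 0.019, and 0.0059 with the block), and between zones of IR pigs *RYR2* (0.048 and 0.048), *CASQ2* (0.12 and 0.12), *SLC8A1* (0.065 and 0.066) and *CACNA1C* (0.069 and 0.073). With RUVg *CACNA1C* in the border zone gave -0.015. The cause was not tested. With a pig left out, the log2 fold change in the scar zone ranged from -0.0065 to 0.21 for *RYR2* and -0.10 to 0.32 for *PLN*, and in the border zone from -0.18 to 0.090 for *CASQ2*, -0.26 to 0.018 for *TRDN*, -0.046 to 0.098 for *SLC8A1* and -0.14 to 0.21 for *CACNA1C*. Between zones of IR pigs it ranged from -0.14 to 0.010 for *CASQ2* and -0.26 to 0.090 for *CACNA1C*, and of sham pigs from -0.084 to 0.19 for *RYR2*, -0.11 to 0.11 for *ATP2A2* and -0.13 to 0.23 for *TRDN*.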
